A study of Mus musculus with 4 samples.

Results

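The genes described here are the skeletal myogenic factors and early muscle genes *Pax3*, *Pax7*, *Myf5*, *Myf6*, *Myod1*, *Myog*, *Myh3*, *Chrna1*, *Acta1* and *Tnnt1*, chosen for their roles in making skeletal muscle, 10 of the 46983 genes listed in each library. RNA-seq was performed on vocal fold tissue dissected from mouse embryos at E10.5, 32 to 35 somites, as 4 libraries, each from a pool of 3 larynxes. Of these, 2 pools were *Shh*-/- and 2 were WT, and the comparison asks which transcripts differ in the larynx when Sonic hedgehog is lost. The WT pools are labelled Swiss Webster WT. The mutant pools carry the Shhtm1amc null allele, which was kept on a Swiss Webster background. The sample labels write the mutant genotype as *Shh*+/-, while the study's design text and paper write *Shh*-/-, which is used here. The allele is a germline null, so the loss is not limited to the larynx or to one of its tissues. The labels do not say whether pools of a genotype came from different litters, so p-values measure the spread between pools.

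The muscles inside the larynx are branchiomeric, formed from mesoderm of the caudal pharyngeal arches, while trunk, limb and tongue muscles come from somites. In somite-derived progenitors the paired-box factors *Pax3* and *Pax7* act upstream of the myogenic regulatory factors *Myf5*, *Myod1* and *Myf6*, whereas head muscle uses *Tbx1*, *Msc* and *Tcf21* ahead of the same factors. *Myog* then drives differentiation, and the myocytes express sarcomeric proteins such as embryonic myosin (*Myh3*), skeletal alpha-actin (*Acta1*) and slow troponin T (*Tnnt1*), together with the acetylcholine receptor alpha subunit (*Chrna1*). *Pax3* is not a muscle gene alone, since the dorsal neural tube and the neural crest also express it.

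Transcript levels are given in TPM, a gene's length-corrected share of a library's transcripts scaled so that each library sums to 1000000. Differences are on the log2(TPM + 1) scale, *Shh*-/- minus WT, on which the change of a gene near 0 comes out smaller than its fold in TPM. Aligned reads came to about 18300000 and 41700000 for the mutant pools, and 37900000 and 39600000 for WT, so the first mutant pool was the shallowest. RNA integrity numbers were 8 and 7.7 in the mutant pools against 7.7 and 9 in WT. *Ptch1*, the hedgehog receptor and target gene, was 12.9 and 13.8 TPM in the pools from mutants and 57.8 and 55.1 TPM in those from WT, and fell by 2.0 on the log2 scale (limma with Benjamini-Hochberg adjustment, adjusted p = 0.0319). *Shh* was 10.4 and 10.8 TPM in the mutant pools against 23.7 and 42.1 TPM in WT, a log2 difference of -1.49 (limma, Benjamini-Hochberg adjusted p = 0.0895). A gene's TPM includes reads from exons that a null allele may keep. The tissue label was checked against epithelial markers: *Epcam* lay between 86.4 and 123 TPM in the 4 libraries, while the foregut factor *Nkx2-1* (chosen after its values were seen) was 6.16 and 3.61 TPM in the pools from mutants and 15.9 and 17.9 TPM in those from WT. All 37 mitochondrially encoded genes were listed at 0 in every library, so a 0 in these tables may be a failed estimate.

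*Pax3* was the member that differed most between the genotypes and the only one that passed the test. Its transcripts were under 0.5 TPM in both WT pools and reached the level of a few TPM in *Shh*-/- larynxes. *Myf5* was higher in both mutant pools than in both WT pools without passing the test, and *Myod1* and *Myog* overlapped between genotypes. The contractile genes *Acta1* and *Tnnt1* lay slightly higher in the mutant pools, again without passing the test. *Pax7*, *Myf6*, *Myh3* and *Chrna1* were below 0.5 TPM in every library. Of the 10 members, 6 had a mean of at least 1 TPM over the 4 libraries and were tested, and 1 was called higher at an adjusted p under 0.05. Over all 16972 genes tested, 0.725% were called in either direction, 0.56% higher and 0.165% lower, 123 genes in all. With 1 pool left out, between 0 and 16 genes were called. *Pax3* and *Myf5*, with WT means under 1 TPM, passed the filter on low values only through the mutant pools, and so had to differ to be tested at all, which makes the counts over the tested members a description and no support. Both mutant pools exceeded both WT pools for 4 of the 6 tested members, against 38.0% of all genes tested, and the reverse held for 0 of the 6, against 22.7% (60.7% of all genes were apart in either direction). The summed level of the 10 members was 35.0 and 30.9 TPM in the mutant pools against 23.4 and 22 TPM in WT. In bulk tissue, fewer cells of a type and less RNA per cell cannot be told apart.

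**Figure D1:**
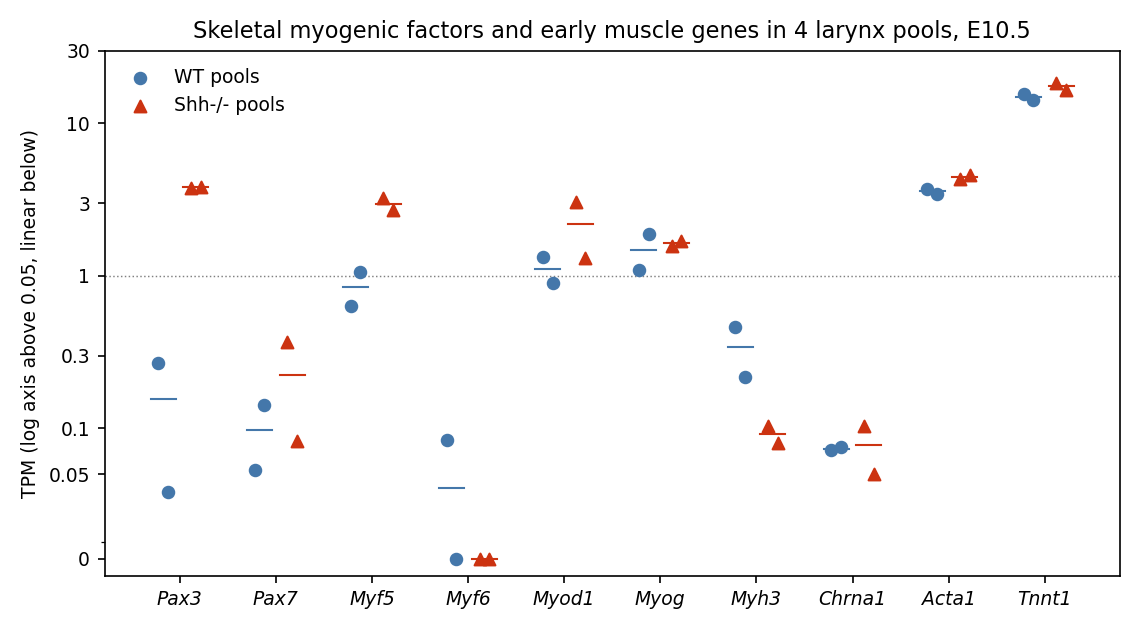
TPM of each of the 10 members (vertical axis, logarithmic above 0.05 and linear below it) in the WT pools (blue circles) and the *Shh*-/- pools (red triangles), 1 point per library, with a line at the mean of each genotype and a dotted line at 1 TPM. The *Pax3* points of the mutant pools, at 3.77 and 3.84 TPM, stand far above those of the WT pools, at 0.270 and 0.0392 TPM, while the *Tnnt1*, *Acta1* and *Myog* points of the genotypes lie close together.

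*Pax3*, a paired-box and homeodomain transcription factor (chr1:78101267-78197134, minus strand, mm10), was 3.77 and 3.84 TPM in the pools from mutants and 0.270 and 0.0392 TPM in those from WT. The mutant pools lay close together and far from both WT pools, and the WT pools differed from each other several-fold at levels near 0. The mean over the mutant pools was 3.81 ± 0.0550 TPM (SD, n = 2), against a WT mean of 0.155 ± 0.163 TPM (SD, n = 2). *Pax3* rose by 2.06 on the log2(TPM + 1) scale (SE 0.23, 95% confidence interval 1.47 to 2.66), and passed the threshold narrowly in limma (Benjamini-Hochberg adjusted p = 0.0470). Among all 46983 genes listed, those at 0 included, *Pax3* stood at percentile 71.5 and 71.8 of the mutant pools and 55.2 and 48.7 of the WT pools. No fold is given on the linear scale because the WT level rests on very low values. Without 1 pool, whichever it was, the log2 difference was 1.92 to 2.21 and the adjusted p 0.115 to 0.162 (limma, Benjamini-Hochberg), so the call was lost each time. With read coverage per aligned base in place of TPM, the difference was 1.14 (limma, Benjamini-Hochberg adjusted p = 0.0560).

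*Pax7*, the paralog of *Pax3* that marks muscle stem cells later in development (chr4:139737062-139833528, minus strand), was 0.368 and 0.0821 TPM in the mutant pools against 0.0532 and 0.142 TPM in WT. The genotypes overlapped, and the gene was too low to be tested. The TPM of *Pax3* was 10.3 and 46.9 times that of *Pax7* in the mutant pools and 5.08 and 0.276 times in the WT pools, so WT pool 6 was the only library with more *Pax7* than *Pax3*. For *Pax3* the deposited FPKM was 4.13 and 3.99 (mutant pools) and 3.33 (both WT pools) times what coverage per aligned base gives. For *Pax7* it was 1.0 times. The scaling of *Pax3* was thus larger in the mutant pools. The ratios of *Pax3* to *Pax7* and the size of the *Pax3* difference rest in part on it. No stretch of 75 bases, the length of a read, of the *Pax3* or *Pax7* transcript examined occurred in an annotated transcript of another gene.

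*Myf5*, the basic helix-loop-helix factor that is the earliest of the myogenic regulators in the mouse embryo (chr10:107482908-107486134, minus strand), was 3.23 and 2.72 TPM in the pools from mutants and 0.632 and 1.07 TPM in those from WT. Both mutant pools were above both WT pools, and the ratio of the means was 3.5. The log2 difference was 1.11 (SE 0.24, 95% confidence interval 0.50 to 1.72), with an unadjusted p of 0.0056 that did not survive adjustment over all genes (limma, Benjamini-Hochberg adjusted p = 0.103). *Myf5* has a single transcript, so its coverage could be read as 59.0 and 117.5 reads in the mutant pools against 25 and 44 reads in WT. *Pax3* and *Myf5* were the members at an unadjusted p under 0.05, 2 of 6 and both higher (24.8% of all genes tested in either direction, 17.5% higher), and both were in the test only through the mutant pools. *Myf6*, which lies 6725 bp from *Myf5* on the same strand (chr10:107492860-107494729) and is most active in differentiating fibres, was listed at 0 in both mutant pools and in WT pool 6, and at 0.0839 TPM in WT pool 4. That value was worth 2.01 reads.

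*Myod1*, the factor that commits cells to the muscle lineage alongside *Myf5* (chr7:46376474-46379092, plus strand), was 3.06 and 1.32 TPM in the mutant pools against 1.33 and 0.898 TPM in WT. The first mutant pool stood apart, and the second fell within the WT range. The log2 difference was 0.54 (SE 0.34, 95% confidence interval -0.34 to 1.43) and did not pass the test (limma, Benjamini-Hochberg adjusted p = 0.367). It was 0.14 without mutant pool 1, 0.95 without mutant pool 2 and 0.20 with the GC and length correction. The coverage was worth 50.0 and 50.9 reads in the mutant pools against 47.1 and 33.1 in WT. The higher TPM of the first mutant pool thus came from as many reads in a library less deep than the second. The level of *Myf5* was 1.06 and 2.06 times that of *Myod1* in the mutant pools and 0.474 and 1.19 times in the WT pools, and these ranges overlapped.

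*Myog*, the factor that switches myoblasts into differentiation (chr1:134289989-134292548, plus strand), was 1.58 and 1.70 TPM in the pools from mutants and 1.09 and 1.87 TPM in those from WT. The mutant pools lay between the WT pools. The log2 difference was 0.11 (SE 0.25, 95% confidence interval -0.55 to 0.76; limma, Benjamini-Hochberg adjusted p = 0.813), and its sign turned with median centring of the libraries (-0.022) and with a correction for GC content and length (-0.088). The interval leaves room for changes of up to about 0.76 on this scale, so similar levels were not shown. The coverage was worth 20.7 and 52.8 reads in the mutant pools against 31.0 and 55.4 in WT.

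**Figure D2:**
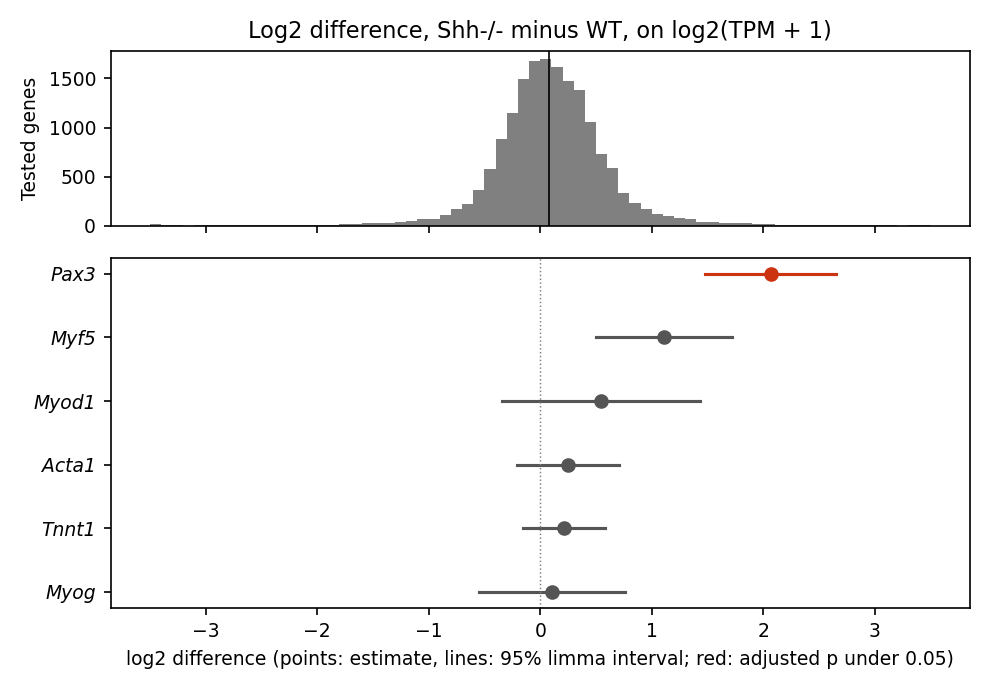
Upper panel, histogram of the log2 difference (*Shh*-/- minus WT, on log2(TPM + 1)) of all 16972 tested genes, with values past the ends of the axis set to its ends and a line at the median, 0.08; lower panel, the 6 tested members with their 95% confidence intervals from limma, red where the adjusted p was under 0.05. The interval of *Pax3* runs from 1.47 to 2.66 and that of *Myf5* from 0.50 to 1.72, both clear of 0, while those of *Myod1*, *Myog*, *Acta1* and *Tnnt1* include 0.

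*Tnnt1*, the troponin T of slow skeletal fibres (chr7:4504570-4516382, minus strand), had the highest TPM of the members in every library. Its level was 18.4 and 16.5 TPM in the mutant pools against 15.6 and 14.3 TPM in WT. The genotypes did not overlap, and the nearest pools of different genotype lay closer together than the pools of either genotype did. The log2 difference was 0.21 (SE 0.14, 95% confidence interval -0.15 to 0.58; limma, Benjamini-Hochberg adjusted p = 0.386). *Acta1*, skeletal alpha-actin of the thin filament (chr8:123891767-123894736, minus strand), was 4.33 and 4.56 TPM in the pools from mutants and 3.74 and 3.45 TPM in those from WT. The pools of each genotype again lay on separate sides, with a log2 difference of 0.25 (SE 0.18, 95% confidence interval -0.21 to 0.70) that did not pass the test (limma, Benjamini-Hochberg adjusted p = 0.416). With a correction for GC content and length the *Acta1* difference was -0.0091. The level of *Tnnt1* over that of *Acta1* was 4.26 and 3.63 in the mutant pools against 4.18 and 4.14 in WT, which overlapped. For *Tnnt1* the deposited FPKM was 4.06 and 3.55 (mutant pools) and 3.93 and 4.4 (WT) times what coverage per aligned base gives. For *Acta1* it was 1.0 times in every library. The rank of *Tnnt1* above *Acta1* and this ratio therefore rest on that scaling. *Acta1* overlaps *Gm20388* on the opposite strand, listed at 0.847 TPM in the first mutant pool and at 0 in the other libraries, and the strand setting of the counting is not given in the sources used here.

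*Myh3*, the embryonic myosin heavy chain of the first muscle fibres (chr11:67078300-67102291, plus strand), was 0.104 and 0.0799 TPM in the mutant pools against 0.464 and 0.215 TPM in WT. Both mutant pools were below both WT pools, the reverse of *Tnnt1* and *Acta1*, at levels too low for the test. Of the 75-base stretches of its transcript, 1.86% also occur in the neighbouring myosin genes *Myh13*, *Myh1*, *Myh2* and *Myh8*, and reads from these cannot be assigned. *Chrna1*, the ligand-binding subunit of the muscle acetylcholine receptor (chr2:73563215-73580338, minus strand), was 0.104 and 0.0504 TPM in the pools from mutants and 0.0721 and 0.0749 TPM in those from WT. The coverage was worth 4.0 to 6.5 reads in any library, and the genotypes overlapped. By TPM, the members of the mutant pools ran from *Tnnt1* through *Acta1* and *Pax3* to *Myf5*, an order that rests on the scaling given above for *Tnnt1* and *Pax3*. In both WT pools *Tnnt1* and *Acta1* came first and *Pax3* lay below *Myf5*, while the order of *Myog*, *Myod1* and *Myf5* between them differed from pool to pool.

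The regions upstream of the members' RefSeq starts are shown to set the contractile genes and *Myog*, whose promoters carry letters of muscle regulatory motifs, beside *Myf5*, whose promoter holds none of those searched. Sequences are the 250 bases before the RefSeq start on GRCm38.p6, 5′ to 3′ on the gene's strand, for 4 of the 7 members with an entry. *Pax3*, *Myod1* and *Myf6* had no entry, so no motif was searched in their promoters. Capitals mark E-boxes (CANNTG, the letters that basic helix-loop-helix factors such as *Myod1* and *Myog* recognise) and CArG boxes (the site of serum response factor, searched by name). The windows are chr10:107486135-107486384 for *Myf5*, chr1:134289754-134290003 for *Myog*, chr8:123894776-123895025 for *Acta1* and chr7:4515976-4516225 for *Tnnt1*. RefSeq starts can differ from those of the gene spans given above. The *Tnnt1* window lies wholly inside the gene's span, and the *Myog* window runs a few bases into it.
Myf5: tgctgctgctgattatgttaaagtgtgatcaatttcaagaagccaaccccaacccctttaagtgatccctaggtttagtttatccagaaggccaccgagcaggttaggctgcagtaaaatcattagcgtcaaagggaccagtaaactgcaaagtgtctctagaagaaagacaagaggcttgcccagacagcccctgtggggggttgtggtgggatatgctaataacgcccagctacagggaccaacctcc
Myog: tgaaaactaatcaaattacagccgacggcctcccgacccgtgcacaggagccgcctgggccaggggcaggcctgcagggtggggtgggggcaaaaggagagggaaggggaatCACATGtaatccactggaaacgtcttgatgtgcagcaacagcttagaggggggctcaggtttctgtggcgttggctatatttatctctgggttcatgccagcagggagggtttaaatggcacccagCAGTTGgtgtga
Acta1: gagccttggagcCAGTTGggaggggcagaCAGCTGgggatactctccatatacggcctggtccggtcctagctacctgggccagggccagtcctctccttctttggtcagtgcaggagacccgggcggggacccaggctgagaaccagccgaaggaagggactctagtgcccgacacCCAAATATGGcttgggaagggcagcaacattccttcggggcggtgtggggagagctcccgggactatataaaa
Tnnt1: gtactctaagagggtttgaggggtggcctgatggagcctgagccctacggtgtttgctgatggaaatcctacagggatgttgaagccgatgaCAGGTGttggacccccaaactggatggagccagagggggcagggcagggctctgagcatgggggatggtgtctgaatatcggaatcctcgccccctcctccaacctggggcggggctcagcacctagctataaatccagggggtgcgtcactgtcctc
The *Myf5* window held 0 E-boxes and the *Myog* window 2, starting at positions -138 and -12, counted from the RefSeq start. The *Acta1* window held 2 E-boxes, at -238 and -221, of which the second reads CAGCTG, and 1 CArG box at -73. The *Tnnt1* window held 1 E-box, at -158. *Chrna1* had 3 E-boxes, *Myh3* had 1 and *Pax7* had 0. Of 32851 promoters of the same length, 66.2% held at least 1 E-box, 13.0% the form CAGCTG and 1.47% a CArG box. An E-box by itself was therefore common, and the CArG box of *Acta1* was among the rarer matches. The MEF2 site, searched only in the form YTAWWWWTAR (Y is C or T, W is A or T, R is A or G), occurred in 2.92% of promoters and in 0 of the 7 members. The *Myog* window holds ctatatttat, which differs from that form in its last base alone. Looser forms of the site were not searched, so its absence from these promoters was not shown. The letters GACCACCCA, bound by the GLI factors of the hedgehog pathway, occurred in 0.225% of promoters and likewise in 0 of the 7 members. The letters TATAAA occurred in 12.4% of promoters and in those of *Myh3*, *Acta1* and *Tnnt1*. All motifs were searched on both strands, CAGCTG is itself an E-box, and a match is a description of letters and not a bound site.

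Of the factors that act beside or ahead of the myogenic regulators, 16 were examined and tested, and 2 passed the test, both higher in *Shh*-/-. *Eya2*, a transcriptional coactivator and phosphatase of the eyes absent family, was 26.1 and 21.4 TPM in the mutant pools against 7.47 and 6.70 TPM in WT. It rose by 1.61 on the log2 scale (SE 0.17; limma, Benjamini-Hochberg adjusted p = 0.0449). *Lbx1*, a homeobox gene of migrating limb and hypoglossal muscle precursors and of dorsal spinal interneurons, was 6.08 and 3.98 TPM against 0.191 and 0.162 TPM, with a log2 rise of 2.33 (limma, Benjamini-Hochberg adjusted p = 0.0472). Like *Pax3*, *Lbx1* reached the filter on low values only through the mutant pools and had to differ to be tested. The mutant pools of both genes stood well above the WT pools, yet neither call held when any 1 of the 4 pools was left out (limma, 0 called). Of the 16 genes, 12 had a difference above 0 and 4 below it, while 9895 of all 16972 genes tested were above 0. The median difference was 0.55 against 0.08 over all genes tested. Both mutant pools exceeded both WT pools for 11 (38.0% of all genes tested), and the reverse held for 3 (22.7%). Like *Lbx1*, *Lhx2* (chosen after its values were seen) reached the filter only through the mutant pools, at 3.75 and 1.47 TPM against 0.185 and 0.123 TPM in WT.

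The factors tied to head muscle did not pass the test. The genes of this paragraph were chosen after their values were seen. *Tcf21*, a bHLH factor of branchiomeric muscle precursors and of mesenchyme, was 37.7 and 70.2 TPM in the pools from mutants and 90.3 and 88.4 TPM in those from WT (log2 difference -0.78; limma, Benjamini-Hochberg adjusted p = 0.195). *Msc*, which acts with *Tcf21* in the branchial arches, was 1.33 and 6.64 TPM in the mutant pools against 18.8 and 11.2 TPM in WT (log2 difference -1.88; limma, Benjamini-Hochberg adjusted p = 0.160). Both factors were lower in both mutant pools than in both WT pools, and for each the first mutant pool was the lowest. *Tbx1*, the T-box regulator of pharyngeal mesoderm, was 45.5 and 48.9 TPM against 41.2 and 32.6 TPM (limma, Benjamini-Hochberg adjusted p = 0.229). *Dmrt2*, a factor of the dermomyotome, was 12.4 and 7.20 TPM against 1.93 and 1.63 TPM (log2 difference 1.92; limma, Benjamini-Hochberg adjusted p = 0.0688), and *Meox1*, which marks somites, was 36 and 30.1 TPM against 18.9 and 17.5 TPM (log2 difference 0.82; limma, Benjamini-Hochberg adjusted p = 0.0823). *Meox2* went the other way from *Meox1*, at 4.24 and 5.87 TPM in the mutant pools against 7.97 and 10.6 TPM in WT. It was lower in both mutant pools and did not pass the test either (log2 difference -0.77; limma, Benjamini-Hochberg adjusted p = 0.151). *Met*, the receptor needed for migration of limb muscle precursors, was 3.53 and 8.29 TPM against 4.39 and 6.49 TPM and overlapped.

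**Figure D3:**
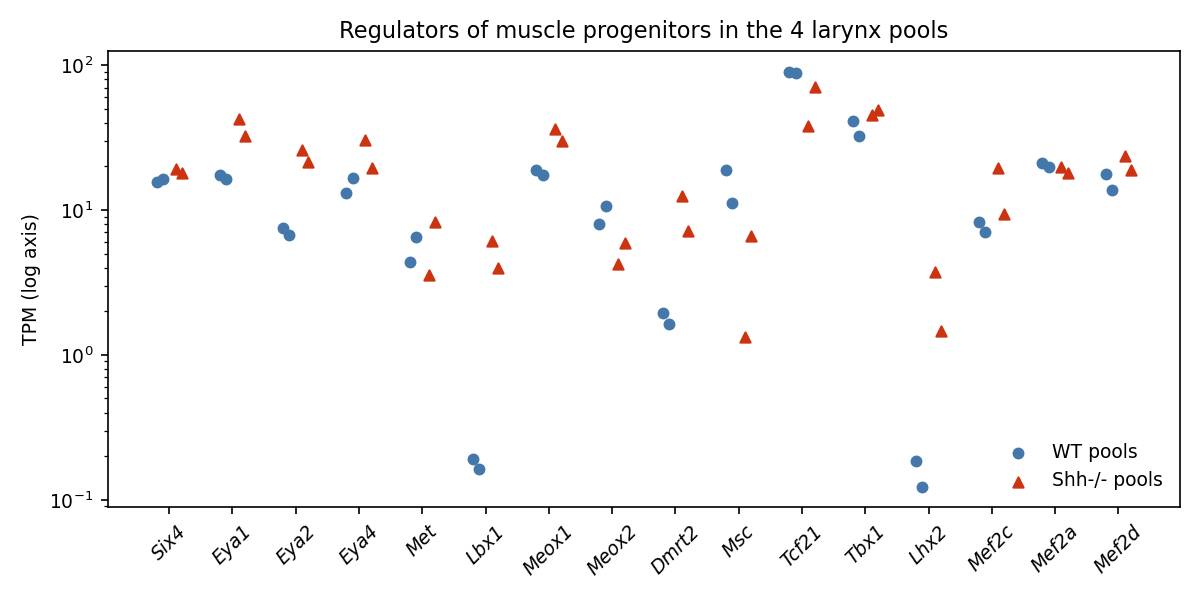
TPM of 16 muscle progenitor regulators (log scale) in the 2 *Shh*-/- and 2 WT pools, 1 point per library. *Eya2* and *Lbx1*, which passed the test, show mutant points above the WT points, at 26.1 and 21.4 TPM against 7.47 and 6.70 TPM for *Eya2*. The *Msc*, *Tcf21* and *Meox2* points are lower in the mutant pools.

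No gene of the fusion, skeletal sarcomere or neuromuscular lists passed the test. Of 11 genes of myoblast fusion and adhesion, 5 were tested and 0 called in limma, with 4 at an unadjusted p under 0.05 (24.8% of all genes tested). The most abundant were *Jam3*, a junctional adhesion molecule, at 78.3 and 77.6 TPM in the pools from mutants and 99.4 and 92.2 TPM in those from WT (log2 difference -0.29; limma, Benjamini-Hochberg adjusted p = 0.170), and the hedgehog co-receptors *Boc* and *Cdon*, which also promote myoblast adhesion. *Boc* was 23.8 and 23.4 TPM against 12.0 and 10.4 TPM (log2 difference 1.02; limma, Benjamini-Hochberg adjusted p = 0.0625). *Cdon* was 22.1 and 15.5 TPM against 10.3 and 7.17 TPM (log2 difference 1.03; limma, Benjamini-Hochberg adjusted p = 0.119). *Boc* and *Cdon* were thus higher in both mutant pools, and the median difference of the 5 tested genes was 0.97, or 0.25 over 10 genes without a filter on low values and 0.64 without WT pool 6. The fusion gene *Mymk*, listed under its older symbol *Tmem8c*, was listed at 0 in every library.

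Of 16 skeletal sarcomere genes, 6 were tested and 0 called in limma, with 3 at an unadjusted p under 0.05 (24.8% of all genes tested) and a median difference of 0.93 over the 6. *Tnni1*, slow troponin I, was 32.3 and 76.2 TPM in the mutant pools against 18.1 and 18.9 TPM in WT (log2 difference 1.38; limma, Benjamini-Hochberg adjusted p = 0.145). *Mybpc1*, slow myosin-binding protein C, was 33.7 and 20.7 TPM against 8.05 and 3.89 TPM (log2 difference 2.04; limma, Benjamini-Hochberg adjusted p = 0.0888). *Mylpf*, the fast myosin regulatory light chain, was 11.5 and 6.59 TPM against 10.0 and 7.96 TPM and overlapped. *Actn3*, the alpha-actinin of fast fibres, and *Tnnt3*, fast troponin T (both chosen after their values were seen), were 8.12 and 6.55 TPM against 2.20 and 2.45 TPM and 5.45 and 5.89 TPM against 5.26 and 4.08 TPM. Their log2 differences were 1.32 and 0.24 (limma, Benjamini-Hochberg adjusted p = 0.0682 and 0.460). *Tnni2*, fast troponin I (chosen likewise), was 0.891 and 3.01 TPM against 0.842 and 0.925 TPM and overlapped. Slow and fast genes were thus both among those higher in both mutant pools without passing the test, while the fast genes *Mylpf* and *Tnni2* overlapped. The 4 genes *Myh1*, *Myh2*, *Myom2* and *Ckm* of mature fibres were listed at 0 everywhere. The median was 0.11 over the 12 genes with a value when no filter on low values was used, and 0.55 without mutant pool 2. Of 12 genes of the neuromuscular junction and of excitation-contraction coupling, 4 were tested and 0 called in limma, with 0 at an unadjusted p under 0.05 and a median of 0.29. They were *Chrnb1*, *Stac3*, *Ache* and *Jph1*, none above 7.46 TPM in any library, while *Musk* and *Chrne* were listed at 0 everywhere.

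Genes of striated muscle shared between skeletal and cardiac fibres gave 1 call among 9 tested of 14, with a median difference of 1.3, or 0.40 over all 14 without a filter on low values and 0.41 over the 13 with at least 0.1 TPM. *Myh7*, the slow and cardiac beta-myosin heavy chain, was 16.8 and 12.6 TPM in the pools from mutants and 2.79 and 2.32 TPM in those from WT, and rose by 2.13 on the log2 scale (limma, Benjamini-Hochberg adjusted p = 0.0422), a call that was likewise lost without any 1 pool. Of 14 cardiac genes, 10 were tested and 1 was called higher, with a median of 0.59. This was *Myh6*, the alpha-myosin heavy chain of the atria, at 8.10 and 7.59 TPM against 1.54 and 1.69 TPM (log2 rise 1.76; limma, Benjamini-Hochberg adjusted p = 0.0448). *Nkx2-5*, the cardiac homeobox gene (chosen after its values were seen), went the other way, at 5.97 and 4.73 TPM against 18.5 and 13.6 TPM (log2 difference -1.42; limma, Benjamini-Hochberg adjusted p = 0.0697), and the atrial hormone gene *Nppa* was listed at 0 in every library. The *Myh6* call was lost with a required fold change of 1.2, the GC and length correction, coverage per aligned base and no filter. With median centring and with the GC and length correction, 1 cardiac gene was called lower. The cardiac genes summed to 140.4 and 152.2 TPM in the mutant pools against 87.2 and 77.6 TPM in WT, and their part in the difference of the striated genes was not tested. All 9 smooth muscle genes were tested, with a median of 0.65 and 1 call, *Tagln*, an actin-binding protein, at 232 and 208 TPM against 116 and 120 TPM (log2 rise 0.88; limma, Benjamini-Hochberg adjusted p = 0.0493). That call was lost with quantile normalization, median centring, a pseudocount of 0.1, eBayes without trend, the GC and length correction and each pool left out, among others, and the median was 0.24 with the GC and length correction and 0.38 without mutant pool 1.

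**Figure D4:**
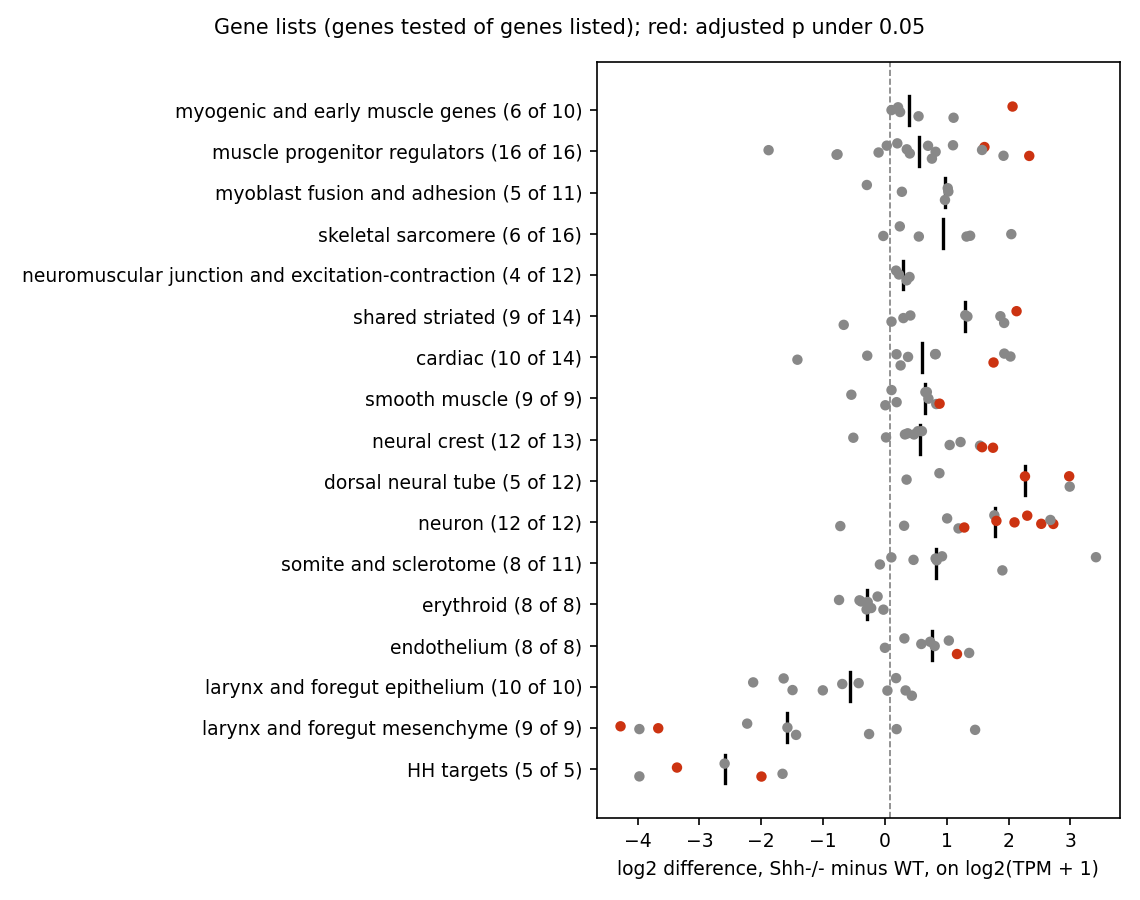
Log2 difference (*Shh*-/- minus WT, on log2(TPM + 1), horizontal axis) of the tested genes of each list, 1 point per gene, with the list's median as a black bar; the dashed line is the median of all tested genes, 0.08, and red points passed limma at an adjusted p under 0.05. With the filter on low values used here, the neuron and dorsal neural tube medians lie furthest to the right, at 1.79 and 2.27 (0.62 for the dorsal neural tube without the filter), and those of the larynx mesenchyme and hedgehog targets furthest to the left, at -1.58 and -2.59.

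Markers of other tissues that express *Pax3* or *Lbx1* gave calls as well. Of 12 dorsal neural tube genes, 5 were tested and 2 called higher, with a median of 2.27, and they summed to 91.1 and 49.9 TPM in the pools from mutants and 10.6 and 5.33 TPM in those from WT. Most of each sum was *Msx1*, a homeobox gene that mesenchyme also expresses widely (chosen after its values were seen), at 74.6 and 36.3 TPM against 9.02 and 3.47 TPM (log2 difference 2.99; limma, Benjamini-Hochberg adjusted p = 0.0784). Without a filter on low values the median over 8 genes of the list was 0.62. The called genes were the zinc-finger factors *Zic1*, at 4.68 and 3.84 TPM against 0 and 0.189 TPM, and *Zic2*, at 8.89 and 6.30 TPM against 0.112 and 0.0414 TPM (limma, Benjamini-Hochberg adjusted p = 0.0449 and 0.0323). Both were near 0 in WT, passed the filter on low values through the mutant pools alone, and so had to differ to be tested. Both are also expressed in dorsal somite. The defining genes of the dorsal neural tube *Wnt1* and *Atoh1* were listed at 0 in every library, as were *Dbx1* and *Dbx2*, and *Wnt3a*, *Olig3* and *Sox1* did not exceed 0.319 TPM. Of 13 neural crest genes, 12 were tested and 2 called higher, with a median of 0.57 and sums of 453 and 392 TPM against 268 and 222 TPM. These were *Twist1*, a bHLH factor of crest and other mesenchyme, at 147 and 125 TPM against 46.1 and 43.8 TPM (log2 rise 1.57; limma, Benjamini-Hochberg adjusted p = 0.0323), and the neurotrophin receptor *Ngfr*, at 38.5 and 35.5 TPM against 12.2 and 8.66 TPM (log2 rise 1.75; limma, Benjamini-Hochberg adjusted p = 0.0470). All 12 neuron genes were tested and 6 were called higher (*Stmn2*, *Tubb3*, *Elavl3*, *Prph*, *Nefl* and *Gap43*), with log2 rises between 1.28 for *Gap43* and 2.72 for *Tubb3*. Of the 12, 1 went the other way and was lower in both mutant pools (log2 difference -0.72). The 6 calls became 1 with eBayes without trend or a required fold change of 1.2. With coverage per aligned base, 1 call remained in each of the neuron, neural crest and dorsal neural tube lists, and without a filter on low values 0. The neuron genes summed to 892 and 979 TPM in the mutant pools against 319 and 286 TPM in WT. The part of neural tissue in the *Pax3* and *Lbx1* differences was not tested.

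Somites express *Pax3*, *Myf5* and *Meox1*, so their markers were read as well. Of 11 genes, 8 were tested and 0 called in limma (5 at an unadjusted p under 0.05, against 24.8% of all genes tested), with a median of 0.83 and sums of 137 and 123 TPM in the pools from mutants and 66.7 and 52.3 TPM in those from WT. The most abundant after *Meox1* were *Scx*, a tendon progenitor factor, at 34.8 and 28.3 TPM against 9.92 and 5.89 TPM (log2 difference 1.90; limma, Benjamini-Hochberg adjusted p = 0.0622), and *Foxc2*, at 10.8 and 19.7 TPM against 17.1 and 14.2 TPM. *Pax1*, a sclerotome and pharyngeal pouch factor (chosen after its values were seen), was 30.1 and 9.67 TPM against 1.08 and 0.400 TPM (log2 difference 3.41; limma, Benjamini-Hochberg adjusted p = 0.0736), with the first mutant pool far above the second. Like *Pax3*, *Pax1* passed the filter on low values only through the mutant pools and so had to differ to be tested. The sclerotome gene *Uncx* and the somite genes *Mesp2* and *Ripply1* did not exceed 0.155 TPM. The part of somite tissue in the *Pax3* and *Myf5* differences was not tested.

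The remaining lists describe the rest of the dissected tissue. Of 8 endothelial genes, all tested, 1 was called higher (*Tie1*, 38.9 and 43.2 TPM against 18.5 and 16.9 TPM; limma, Benjamini-Hochberg adjusted p = 0.0470), and the median was 0.77. That call was lost with quantile normalization, median centring, FPKM and coverage per aligned base, among others. The 8 erythroid genes had a median of -0.29, which was 0.065 without mutant pool 1 and -0.65 without mutant pool 2, and 0 calls in limma (0 at an unadjusted p under 0.05, or 8 without mutant pool 2). They summed to 11690 and 17810 TPM in the mutant pools against 15810 and 18220 TPM in WT. The 10 genes of larynx and foregut epithelium had a median of -0.56 and 0 calls in limma (5 at an unadjusted p under 0.05, against 24.8% of all genes tested), and the most abundant of them, *Krt18*, *Krt8* and *Epcam*, lay between 84.0 and 133 TPM in all libraries. The 9 mesenchyme genes had a median of -1.58 and 2 calls, both lower: *Fendrr* fell by 4.28 and *Foxf2* by 3.67 on the log2 scale (limma, Benjamini-Hochberg adjusted p = 0.0383 for each). Both calls were lost with a pseudocount of 0.1, without a filter on low values and with coverage per aligned base. The 5 hedgehog targets had a median of -2.59 and 2 calls, *Ptch1* and *Hhip*, the latter at 0.149 and 0.635 TPM against 11.3 and 15.2 TPM (limma, Benjamini-Hochberg adjusted p = 0.0323). With a pseudocount of 0.1, 1 hedgehog target was called, and without a filter on low values 0.

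The 5 genes whose pattern over the 4 libraries was most like that of *Pax3*, by Euclidean distance after centring each gene's log2(TPM + 1) on its mean, were *1700020L24Rik*, *Prmt8*, *Ptx3*, *Elavl3* and *Hs3st1*, at distances from 0.141 to 0.201. *Prmt8* is an arginine methyltransferase of neurons, *Ptx3* a secreted pentraxin, *Elavl3* a neuronal RNA-binding protein and *Hs3st1* a heparan sulfate sulfotransferase. With 4 libraries such a likeness is a description of 2 levels and their spread.

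The members' neighbours on the chromosome were also read. The nearest tested genes on either side of *Pax3* were *Epha4*, 586178 bp away with a log2 difference of -0.15 (limma, Benjamini-Hochberg adjusted p = 0.770), and *Sgpp2*, 113210 bp away with a difference of 0.93 (limma, Benjamini-Hochberg adjusted p = 0.205). Neither passed the test. Beside *Myf5* and *Myf6*, *Lin7a* differed by -0.36 and *Otogl* by -1.58, and neither passed the test (limma, Benjamini-Hochberg adjusted p = 0.410 and 0.109). *Ppfia4*, 4234 bp from *Myog*, differed by 0.82 (limma, Benjamini-Hochberg adjusted p = 0.127), and *Tnni3*, 1922 bp from *Tnnt1*, by 0.25 (limma, Benjamini-Hochberg adjusted p = 0.379).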

How the data were processed

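Each library held poly(A)-selected, stranded RNA of 3 pooled larynxes, sequenced single-end. Per the labels and the paper, the authors aligned reads to mm10 with HISAT2 2.1.0 and ran StringTie 1.3.6; the annotation and strand setting are not given in the sources used here. The deposited tables give read coverage per gene, FPKM and TPM, which the authors scaled to 1000000 per library. FPKM was close to coverage over aligned bases for genes with 1 transcript. It was several times that for some genes with more, among them *Pax3*, *Tnnt1*, *Eya2*, *Tnni1*, *Mybpc1* and *Cdon*. For *Hs3st1* it was 63.4 to 71.9 times. The TPM levels of such genes rest in part on that scaling. No read counts were used, so no counting interval was computed. Depth came from FPKM over coverage and a read length of 75 nt, the length at which the largest share of low-coverage, single-transcript genes gave whole reads within 0.02 (29.0 to 34.9% of them, against at most 18.0% at the next best length). Reads per gene are coverage times transcript length over 75 and were given for genes with 1 transcript.

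The test was limma 3.58.1 in R 4.3.3 (lmFit, eBayes with trend) on log2(TPM + 1), run over 16972 genes whose mean reached 1 TPM, with Benjamini-Hochberg adjustment over all of them, a threshold of 0.05 and no covariates. It was also run on simulated normal values, drawn gene by gene from each gene's mean and the fit's own variance. Such a run checks the code and cannot show how the test holds for these pools. The members, gene lists and tests were chosen with earlier results of these data known, so nothing was adjusted or tested over the lists. Named genes are the members, each list's called genes or, with none called, its 3 most abundant, *Shh* and *Ptch1*, and the 5 genes most like *Pax3*; others are marked where named, apart from genes named for a level at or near 0. *Foxf1*, *Des* and *Meox1* are each in 2 lists. Some listed genes are not reported here and were left out of the list counts. Gene models for shared 75-base stretches came from GENCODE M21.

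Alternatives were a pseudocount of 0.1, other filters (none, 0.1 and 5 TPM), quantile normalization, median centring, TPM without haemoglobin and mitochondrial genes, FPKM, eBayes without trend or robust, a required fold change of 1.2, an adjusted p of 0.10, a GC and length correction (splines with 5 degrees of freedom, 16887 genes) and each pool left out. Coverage per aligned base and protein-coding genes alone were added after seeing the data.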

Additional observations from a re-analysis of the deposited data

How the results depend on the processing

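Of 19 alternatives, 8 kept the single call among the members and 11 lost it: 0 members were called with a pseudocount of 0.1, without a filter, with a minimum of 0.1 TPM, with a minimum of 5 TPM (which leaves *Pax3* untested), with a required fold change of 1.2, with the GC and length correction and with coverage per aligned base, and 0 to 0 with each pool left out (limma; 2 members at an unadjusted p under 0.05 in each of these, 0 at a minimum of 5 TPM and 3 without the second mutant pool). *Pax3* stayed positive throughout, from 1.14 to 4.11, with an adjusted p from 0.0376 to 0.162. The number of genes called in limma, 123 (95 higher, 28 lower), became 69 with a pseudocount of 0.1, 0 without a filter (5011 at an unadjusted p under 0.05), 0 with a minimum of 0.1 TPM (4800 unadjusted), 50 with a required fold change of 1.2, 858 at an adjusted p under 0.10, 25 with coverage per aligned base (15 higher, 10 lower), 189 with protein-coding genes alone and 0 to 16 with each pool left out (2070 to 3761 unadjusted), 16 being without WT pool 6. Over the 5 other muscle lists (40 tested genes) the 3 calls became 0 without a filter (23 unadjusted), 0 with a minimum of 0.1 TPM (24 unadjusted), 0 with a required fold change (19 unadjusted), 13 at an adjusted p under 0.10, 0 with coverage (18 unadjusted) and 0 to 0 with each pool left out (16 to 22 unadjusted). The *Myog* difference turned to -0.022 with median centring and -0.088 with the GC and length correction, ran from -0.12 (without WT pool 4) to 0.34 with each pool left out, and *Acta1* to -0.0091 with the GC and length correction; neither had passed the test. *Myf5* stayed positive, from 0.79 to 1.73, with an adjusted p from 0.0825 to 0.284. The *Tnnt1* difference stayed positive, from 0.078 to 0.31, and *Myod1* from 0.14 to 0.95. Among the list medians, the cardiac one was 0.25 with a minimum of 5 TPM, the neuromuscular one 0.027 with the GC and length correction, the epithelial one -0.33 without WT pool 6 and the mesenchymal one -2.39 without the second mutant pool. Median centring moved the median difference of all genes from 0.08 to -0.05. The cause of these changes was not tested beyond their construction. No paired analysis was possible because the pools share no replicate numbers between genotypes. Members under 1 TPM rest on few reads, which limits what can be said of them.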
